A study of Mus musculus with 19 samples.

Results

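The adapters described here are 9 genes of 3 small families, BTG (*Btg1*, *Btg2*, *Btg3* and *Btg4*), TOB (*Tob1* and *Tob2*) and ZFP36 (*Zfp36*, *Zfp36l1* and *Zfp36l2*). They were chosen by symbol, and all 9 were found among the 25889 genes of the deposited table that have a symbol of their own. RNA was measured in 19 libraries of mouse oocytes and embryos, which the labels divide into Het_MII (n = 5), KO_MII (n = 5), Het_2cell (n = 5) and KO_2cell (n = 4). MII oocytes are ovulated eggs arrested in metaphase of the second meiotic division, and 2cell embryos have cleaved once. All came from BL6 females of 6 to 10 weeks, superovulated with 5 IU PMSG and, 48 h later, 5 IU hCG. Zygotes were cultured in M16 medium, and 2cell embryos were taken 37 h after hCG. KO stands for CPEB3-/-, which the methods give as CPEB3 LoxP/LoxP with ZP3 Cre+/-. Cre is driven there by the *Zp3* promoter in growing oocytes, so the gene is deleted in the female germ line, and protein made before Cre acts can persist. Het stands for CPEB3+/-. The methods count a genotype with 1 floxed allele and ZP3 Cre+/- as wild type, and the labels do not say whether the Het females were of this genotype. The labels and methods name only males for the matings, and the study states elsewhere that they were wild type, so that embryos can carry a paternal wild-type allele. Each library was made from 5 cells. The labels do not say whether libraries of a group came from separate females, so p values measure the spread between libraries only.

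BTG and TOB proteins share an N-terminal domain that binds the CAF1 deadenylases CNOT7 and CNOT8 of the CCR4-NOT complex, which shortens poly(A) tails. TOB1 and TOB2 also bind the cytoplasmic poly(A)-binding protein, and TOB1 is known to link CPEB3 to the deadenylase. BTG4 is the adapter of the maturing oocyte and the early embryo, where it couples CCR4-NOT to the cap-binding protein eIF4E and is needed for the clearance of maternal mRNA. ZFP36, ZFP36L1 and ZFP36L2 are zinc finger proteins that bind AU-rich elements (ARE) in 3′UTRs and recruit CCR4-NOT to them, and ZFP36L2 is required in the female germ line. BTG2 and ZFP36 are also known as immediate-early genes, transcribed within minutes of a stimulus in many cells.

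The 3′UTRs of the adapters differ in the motifs that cytoplasmic polyadenylation and decay use, and the windows shown here are examples of those motifs from each of the 3 families, chosen after the values were seen. The longest annotated 3′UTR of each gene (GENCODE vM21, GRCm38) was searched on the transcribed strand for the cytoplasmic polyadenylation element (CPE, UUUUAU or UUUUAAU), the polyadenylation signal (PAS, AAUAAA or AUUAAA) and the ARE core UAUUUAU. The first 2 windows are *Btg4* at chr9:51119749-51119778 and chr9:51119798-51119827 (plus strand), with CPEs 110 and 61 bases before the end of the transcript, both downstream of the PAS motifs of this 3′UTR (316 and 285 bases before the end). Next come *Btg2* at chr1:134075337-134075366 (minus strand), where CPE and PAS overlap, and *Tob1* at chr11:94214996-94215025 (plus strand). The others are AREs of *Zfp36* at chr7:28376965-28376994 and chr7:28376925-28376954, of *Zfp36l1* at chr12:80108166-80108195 and of *Zfp36l2* at chr17:84184679-84184708, all on the minus strand. Capitals mark the motif.
Btg4 CPE, the first: uaaccagucuaUUUUAUaaaucuguuaaaa
Btg4 CPE, the second: gauaaaucccuUUUUAUgucuuuuuaaaag
Btg2 CPE: uucuuuuuuguUUUUAAUaaaaauguagca
Tob1 CPE: cugaauuuuuuUUUUAUaaaaaauuggcac
Zfp36 ARE, the first: agugggcccuuUAUUUAUgacgacuuuauu
Zfp36 ARE, the second: agauuuuauagUAUUUAUauauauuggguc
Zfp36l1 ARE: aacuguuggauUAUUUAUuuuagaaauucu
Zfp36l2 ARE: auuguauguaaUAUUUAUuucauuaauuuc

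*Btg4* carried 5 CPEs in a 3′UTR of only 521 bases. Of the 1720 3′UTRs within 20% of that length, 40.2% held a CPE and 0.523% held as many. *Tob1* and *Zfp36* held 1 CPE each, and 53.2% and 53.8% of 3′UTRs of like length held one. In *Btg1*, *Btg2*, *Btg3* and *Btg4* a CPE lay at most 100 bases before a PAS, at distances of 44, 4, 4 and 66 bases, and in *Btg4* these CPEs are not those shown. The PAS of the closest pair lay 1376, 176, 1462 and 316 bases before the end of the transcript, and thus not at the annotated 3′ end. Such a pair was found in 56.0%, 40.7%, 44.4% and 20.3% of 3′UTRs of like length, in 30.1% of all 16976, and in none of the TOB and ZFP36 genes. The ARE core occurred 3 times in each ZFP36 gene, once in *Btg2* and *Tob2*, and not in the other members, against 28.2% of all 3′UTRs with at least 1. As many as 3 were held by 1.10% of 3′UTRs of a length like that of *Zfp36*, and by 3.90% of those like *Zfp36l1* and 3.90% of those like *Zfp36l2*. These counts describe letters in the annotated sequence, not binding.

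The deposited values are FPKM (fragments scaled to the length of the gene and the size of the library), so that levels can be compared between genes. They count mRNA captured through its poly(A) tail in the SMART-seq protocol, so that fewer molecules and shorter tails cannot be told apart, nor can fewer cells and less RNA per cell. From the spacing of low values the libraries held about 17230000 to 23600000 fragments (median 19740000). *Cpeb3* RNA was 0.0755 ± 0.0240 FPKM (SD, n = 5) in Het_MII and 0.162 ± 0.0325 FPKM (n = 5) in KO_MII, and 0.0303 ± 0.0149 (n = 5) and 0.0554 ± 0.0129 FPKM (n = 4) at the 2cell stage. The value covers the whole gene and was not lower in KO, so CPEB3-/- means libraries labelled so throughout. The 8 oocyte markers were present in every group, with sums of 107 FPKM or more, and the 8 markers of the 2cell stage summed to 185 to 635 FPKM in 2cell libraries. Cumulus and granulosa cell markers (10 of 13 in the table) summed to 0.248 to 0.854 FPKM in all libraries, with Fshr, Inhba, Has2 and Pgr under 0.1 FPKM in each. Hba-a1 and Hba-a2, the 2 of 6 blood markers in the table, summed to at most 0.428 FPKM in MII and to 46.2 to 146 FPKM in 2cell libraries. In each library the log2 values followed the GC content of the transcript with its own slope. At MII the slopes ran from -0.32 to 0.04 (log2 per 10% GC) in CPEB3+/- and from -0.02 to 0.38 in CPEB3-/-, and at the 2cell stage from -0.24 to -0.03 and from 0.13 to 0.34.

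The adapters of CPEB3+/- MII oocytes were mostly *Btg4*. Its mean of 73.5 ± 19.2 FPKM (SD, n = 5) was 76.0% ± 7.01 of the summed FPKM of the 9 genes. Behind it came *Btg2* with 9.92 ± 1.54 FPKM, *Btg1* with 6.20 ± 0.380 FPKM and *Tob2* with 4.66 ± 1.57 FPKM. The libraries of *Btg4* lay above those of *Btg2*, and those of *Btg2* above those of *Btg1*, while *Btg1* and *Tob2* overlapped. *Tob1* (0.547 ± 0.254 FPKM), *Zfp36l2* (0.374 ± 0.0997 FPKM) and *Zfp36* (0.275 ± 0.0808 FPKM) formed a lower tier in which neighbours overlapped. *Btg3*, an antiproliferative BTG protein, was at 0.0527 ± 0.00997 FPKM, 3.07 to 5.07 fragments a library. *Zfp36l1* was listed at 0 or near it, with at most 2.84 fragments in any of the 10 MII libraries. *Btg4* was the highest of the 9 in 18 of 19 libraries, and *Btg2* in the remaining one, KO_2cell D.

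**Figure D1:**
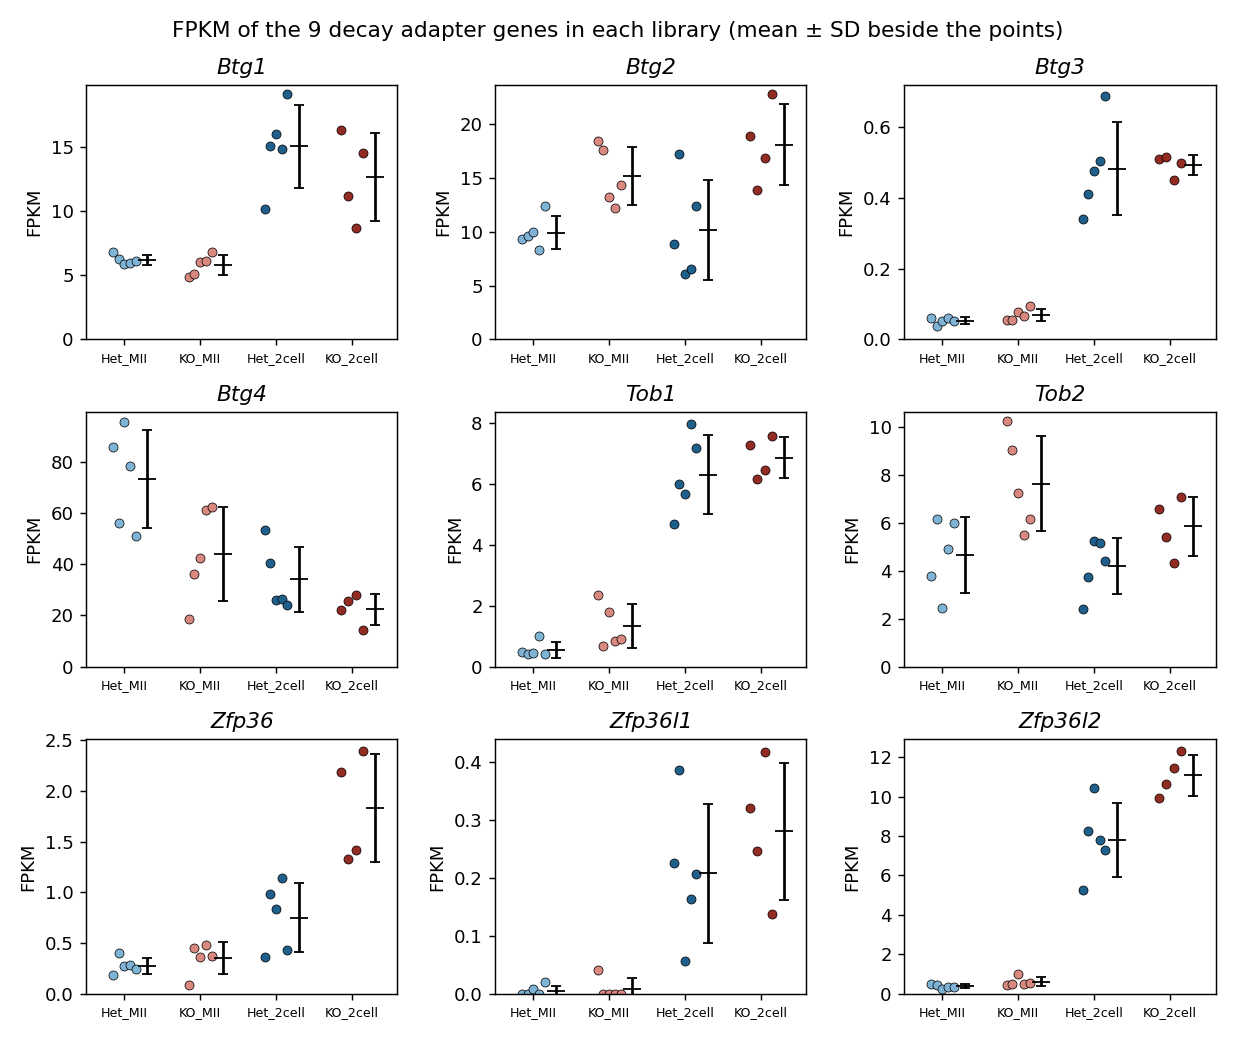
FPKM (linear axis, a scale of its own for each gene) of the 9 adapter genes in the Het_MII, KO_MII, Het_2cell and KO_2cell libraries, one point per library, with the mean ± SD of the group beside the points. *Zfp36l2* lies between 0.263 and 1.02 FPKM in MII and between 5.24 and 12.3 FPKM in 2cell libraries, and *Zfp36* of KO_2cell lies above *Zfp36* of Het_2cell in every library.

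Between MII and the 2cell stage *Zfp36l2*, *Tob1*, *Btg1* and *Zfp36* rose and *Btg4* fell in both genotypes. In CPEB3+/-, 7 of the 9 genes were called (limma, Benjamini-Hochberg adjusted p under 0.05 and more than 1.5-fold), 6 higher and 1 lower, and in CPEB3-/- the counts were the same and held the same 7 genes. Most genes change at this step, since 66.4% of 15784 tested genes were called in CPEB3+/- and 65.2% in CPEB3-/-, so the count of members is near the background. Of all tested genes 38.2% were called higher in either genotype, and 28.2% and 27.0% lower. This balance turned with the scaling, from 6036 higher and 4452 lower in CPEB3+/- to 4428 and 6238 under quantile scaling. *Btg3* and *Zfp36l1* passed the filter on low values only through the 2cell libraries, and the other 7 members did so in both stages. The fits compare levels relative to other mRNAs and not per cell.

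Among the 7 members measured in both stages, *Zfp36l2* and *Tob1* had the largest fitted rises. *Zfp36l2* was at 0.512, 0.440, 0.263, 0.327 and 0.331 FPKM in Het_MII A to E and at 5.24, 8.24, 10.4, 7.81 and 7.29 FPKM in Het_2cell A to E. In KO it was at 0.447, 0.491, 1.02, 0.510 and 0.557 FPKM in MII A to E and at 9.92, 10.6, 11.5 and 12.3 FPKM in 2cell A to D. No MII library came near a 2cell library in either genotype. The rise was 14.4-fold in CPEB3+/- (log2 fold change 3.85, SE 0.197, adjusted p = 3.46e-12, limma) and 14.8-fold in CPEB3-/- (3.89, SE 0.209, adjusted p = 8.55e-12), on the log2(FPKM + 0.1) scale. The size of this fold depended on the settings, though not its call, and the log2 fold changes were 2.54 and 2.79 with a pseudocount of 1 and 3.23 and 3.15 with the GC trend removed. *Tob1*, the partner of CPEB3, was at 0.472, 0.402, 0.460, 0.998 and 0.405 FPKM in Het_MII and at 4.68, 6.00, 5.67, 7.97 and 7.17 FPKM in Het_2cell. In KO_MII it was at 2.36, 0.689, 1.78, 0.848 and 0.916 FPKM and in KO_2cell at 7.28, 6.14, 6.46 and 7.56 FPKM. All 9 2cell libraries lay above all 10 MII libraries. *Tob1* rose 8.85-fold in CPEB3+/- (log2 fold change 3.15, SE 0.274, adjusted p = 6.72e-09, limma) and 4.86-fold in CPEB3-/- (2.28, SE 0.290, adjusted p = 1.20e-06), and with a pseudocount of 1 the log2 fold changes were 2.11 and 1.69, both still called. The stage changes of the genotypes differed by -0.86 (95% interval -1.70 to -0.02), which did not pass the threshold over all genes (interaction, adjusted p = 0.202, limma).

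Of the other rising members, *Btg1*, an antiproliferative BTG protein, was highest. *Btg1* went from 5.84 to 6.81 FPKM in Het_MII to 10.1 to 19.1 FPKM in Het_2cell, and from 4.85 to 6.77 to 8.63 to 16.3 FPKM in KO, without overlap of the stages. Its rise was 2.01-fold in CPEB3+/- (adjusted p = 5.31e-05, limma) and 1.91-fold in CPEB3-/- (adjusted p = 0.000230). *Zfp36*, also called tristetraprolin, rose 1.89-fold in CPEB3+/- (0.275 ± 0.0808 to 0.749 ± 0.341 FPKM, adjusted p = 0.0146, limma) and 4.03-fold in CPEB3-/- (0.350 ± 0.155 to 1.83 ± 0.536 FPKM, adjusted p = 3.24e-05). The difference between these rises was 1.09 on the log2 scale (95% interval 0.12 to 2.07) with an interaction adjusted p of 0.164 (limma). The call of *Zfp36* in CPEB3+/- was lost when the GC trend was removed (log2 fold change 0.33, adjusted p = 0.355), with quantile or sum scaling and with a pseudocount of 1, and that of *Btg1* was lost in both genotypes with sum scaling. In CPEB3-/- *Zfp36* stayed called at 0.97 with a pseudocount of 1 and 1.32 with the GC trend removed. *Btg3* and *Zfp36l1* rose in both genotypes from a few fragments, *Btg3* to 0.483 ± 0.130 FPKM in Het_2cell and 0.493 ± 0.0295 FPKM in KO_2cell, and *Zfp36l1* to 0.208 ± 0.120 and 0.281 ± 0.119 FPKM. The fitted log2 fold changes in CPEB3-/- were 1.69 for *Btg3* and 1.68 for *Zfp36l1*, and with a pseudocount of 1 they were 0.44 and 0.31 and not called, so that neither is a measure of the true fold. Whether reads were counted by strand is not given in the sources used here. Exons of *Btg3* share 695 bases with *Cxadr* and those of *Zfp36l1* share 1672 of 2990 bases with *Gm26669*, both on the opposite strand, and reads of these pairs cannot be told apart without strand.

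*Btg4* was the member that fell. It was at 85.8, 56.2, 95.6, 78.7 and 51.0 FPKM in Het_MII A to E and at 53.5, 40.5, 26.2, 26.3 and 24.3 FPKM in Het_2cell A to E. In KO_MII A to E it was at 18.6, 36.2, 42.5, 61.3 and 62.4 FPKM and in KO_2cell A to D at 22.0, 25.6, 28.1 and 14.2 FPKM. The stages overlapped in both genotypes, through Het_2cell A and KO_MII A. The fall was 2.57-fold in CPEB3+/- (log2 fold change -1.36, SE 0.337, adjusted p = 0.00140, limma) and 2.07-fold in CPEB3-/- (-1.05, SE 0.358, adjusted p = 0.0141). Without KO_2cell D, the lowest library, the call in CPEB3-/- was lost (adjusted p = 0.0577). *Btg2* and *Tob2* were not called in either genotype, but this depended on the scaling. For *Btg2* the log2 difference was -0.28 (95% interval -0.78 to 0.21) in CPEB3+/- and 0.09 (-0.43 to 0.62) in CPEB3-/-, the latter below 0 with sum (-0.32) or quantile (-0.14) scaling. *Tob2*, a TOB protein close to TOB1, had -0.35 (-0.84 to 0.14) and -0.52 (-1.04 to -0.00), and without KO_MII D or KO_2cell D the latter was called. With sum scaling *Tob2* was called lower in CPEB3+/- (-0.90, adjusted p = 0.00449, limma) and CPEB3-/- (-0.93, adjusted p = 0.00532), and *Btg2* in CPEB3+/- (-0.84, adjusted p = 0.00134). With quantile scaling *Tob2* was called lower in both genotypes (-0.60 and -0.76). With the GC trend removed *Tob2* was likewise called lower in both (-0.90, adjusted p = 0.000612, and -1.16, adjusted p = 9.97e-05, limma) and *Btg2* in CPEB3+/- (-0.74, adjusted p = 0.00961).

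**Figure D2:**
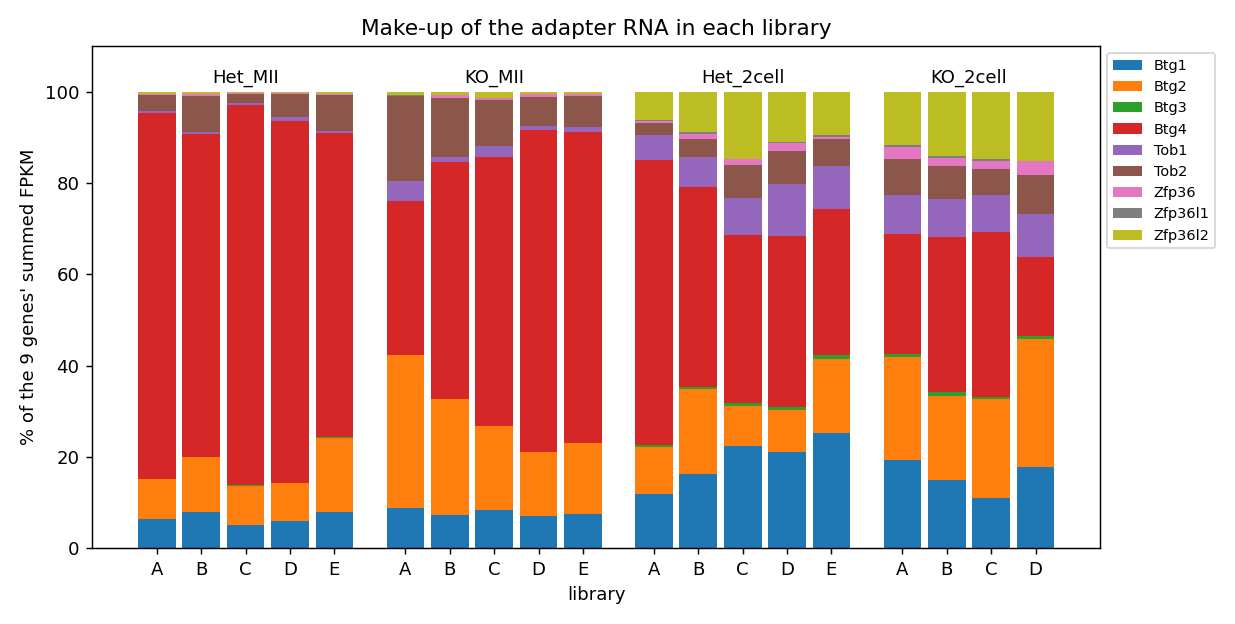
Share of each adapter gene in the summed FPKM of the 9 genes (vertical axis, percent), one stacked bar per library, ordered by group and letter. *Btg4* makes up 66.6% to 83.2% in Het_MII and 17.4% to 36.0% in KO_2cell, while *Zfp36l2* goes from a mean of 0.404% in Het_MII and 0.824% in KO_MII to 10.1% in Het_2cell and 13.9% in KO_2cell.

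By these changes the order of the adapters shifted. In Het_2cell *Btg4* still led with 34.1 ± 12.6 FPKM (42.5% ± 11.9 of the sum), followed by *Btg1* with 15.0 ± 3.21 FPKM, *Btg2* with 10.2 ± 4.65 FPKM, *Zfp36l2* with 7.80 ± 1.87 FPKM, *Tob1* with 6.30 ± 1.29 FPKM and *Tob2* with 4.19 ± 1.18 FPKM. Each of the genes from *Btg1* to *Tob2* overlapped with the next in this order. In KO_2cell the order was *Btg4* (22.5 ± 6.06 FPKM), *Btg2* (18.1 ± 3.75 FPKM), *Btg1* (12.6 ± 3.43 FPKM), *Zfp36l2* (11.1 ± 1.04 FPKM), *Tob1* (6.86 ± 0.669 FPKM) and *Tob2* (5.86 ± 1.22 FPKM), and the first 4 formed a chain of overlapping neighbours. The sum of the 9 genes was 95.5 ± 16.9 FPKM in Het_MII, 75.1 ± 14.6 FPKM in KO_MII, 79.1 ± 9.71 FPKM in Het_2cell and 79.7 ± 4.01 FPKM in KO_2cell.

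The comparison of the genotypes within a stage asks whether adapter levels differed between oocytes or embryos of females labelled KO and Het. At MII none of the 7 members with enough signal was called by limma, against 12.9% of 10513 tested genes. An unadjusted p under 0.05 was held by 4 of the 7. The share of all genes under that cutoff was not counted, but 2246 of the 10513 passed the adjusted p without the fold threshold. The exact permutation test on the deposited FPKM (two-sided, unadjusted, 18 tests over both stages, smallest possible p = 0.00794) gave p = 0.0159 for *Btg2*, 0.0317 for *Tob1*, 0.0317 for *Tob2*, 0.0397 for *Zfp36l2* and 0.0476 for *Btg4* at MII. *Btg3* and *Zfp36l1* were below the filter and were left out of the fit, and their exact p values (0.0873 and 1) rest on at most 8.24 and 2.84 fragments a library. The fitted difference was above 0 for *Btg2*, *Tob1*, *Tob2*, *Zfp36* and *Zfp36l2* and below 0 for *Btg1* and *Btg4*. The median log2 difference of the 7 was 0.46, and that of all tested genes was 0.01. At the 2cell stage *Zfp36* was the 1 of 9 members called, against 18.1% of 14049 tested genes, and the median log2 difference of the 9 was 0.31 (all genes -0.00). All 7 members tested at both stages had the same sign at both, as did 67.0% of the 9333 genes tested at both, and under scaling to the sum of FPKM *Btg1* changed sign at the 2cell stage (0.034), as did *Zfp36* at MII with the GC trend removed (-0.049). The balance of all calls depended on the scaling, with 588 higher and 766 lower at MII against 1111 and 478 when scaled to the sum, and 1198 and 1338 at the 2cell stage against 2422 and 573.

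**Figure D3:**
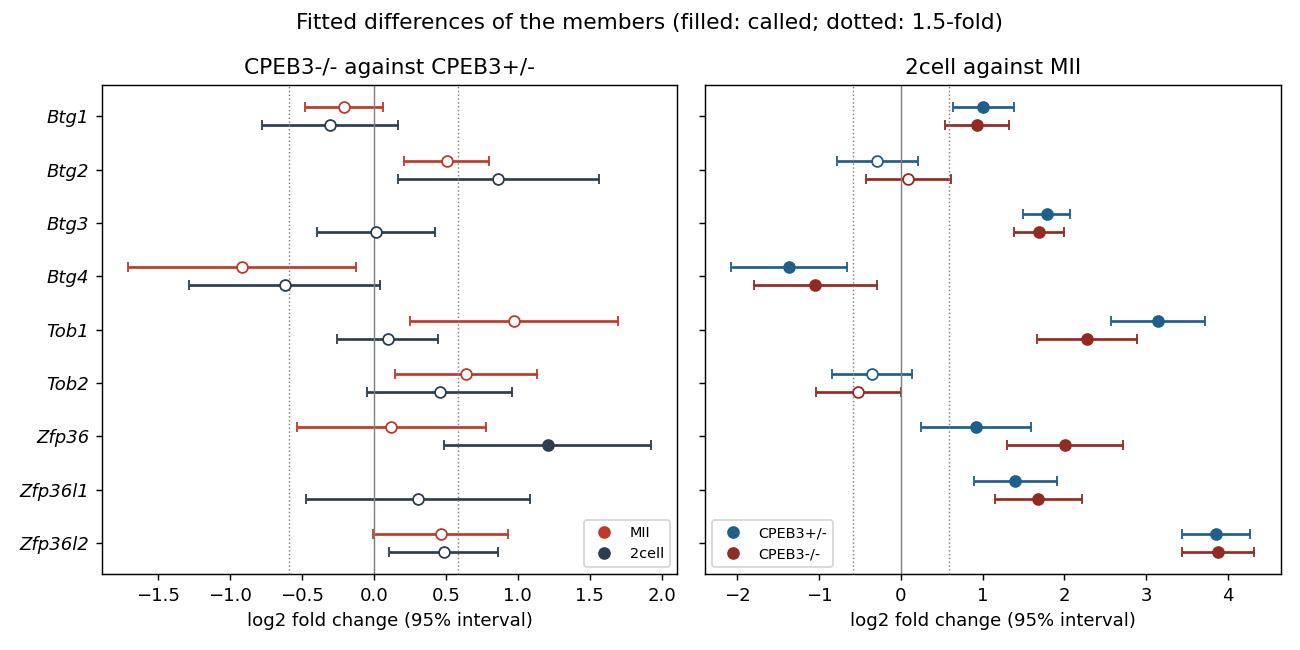
Fitted log2 fold change of each adapter gene with its 95% interval, CPEB3-/- against CPEB3+/- at MII and 2cell on the left and 2cell against MII in each genotype on the right; filled points were called, open points were not, and dotted lines mark 1.5-fold. On the left only *Zfp36* at the 2cell stage is filled (1.21), and on the right 7 genes are filled in both genotypes.

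*Btg4* had the largest difference in level at MII, with 73.5 ± 19.2 FPKM in CPEB3+/- and 44.2 ± 18.3 FPKM in CPEB3-/-. The log2 fold change was -0.91 (95% interval -1.70 to -0.12) with an adjusted p of 0.0915 (limma), and the libraries overlapped. In 2cell embryos it was -0.62 (-1.28 to 0.04, adjusted p = 0.172). At MII the levels of *Btg4* went with the GC slope of the library. *Btg4* has a low GC content of 41.3%, at percentile 12.2 of all genes. The 3 Het_MII libraries with slopes of -0.32 (C), -0.30 (A) and -0.14 (D) had 95.6, 85.8 and 78.7 FPKM. Het_MII B and E, both at a slope of 0.04, had 56.2 and 51.0 FPKM, and KO_MII D and E, at -0.02 and -0.00, had 61.3 and 62.4 FPKM. KO_MII B, C and A, with 0.15, 0.17 and 0.38, had 36.2, 42.5 and 18.6 FPKM. The slopes ran from -0.32 to 0.04 in Het_MII and from -0.02 to 0.38 in KO_MII, and with the GC trend removed the difference in *Btg4* was -0.69 (adjusted p = 0.113, limma). The genotypes overlapped in slope only from -0.02 to 0.04, so that slope and genotype cannot be told apart. The part of GC content in the *Btg4* difference was not tested further. The 8 oocyte markers summed to 733 to 938 FPKM in Het_MII and 559 to 672 FPKM in KO_MII, with 1 of them, *Mos*, called lower, and their part in the result was not tested.

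**Figure D4:**
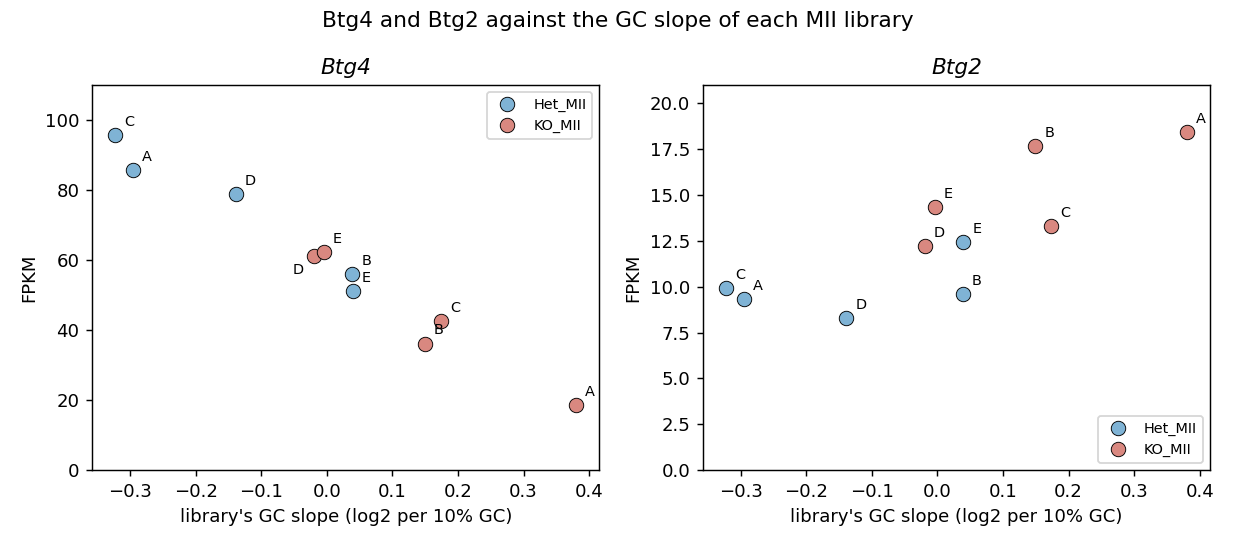
FPKM of *Btg4* (left) and *Btg2* (right) in the 10 MII libraries (vertical axis) against the slope of each library's log2 values on the GC content of transcripts (horizontal axis, log2 per 10% GC), with library letters. *Btg4* runs from 95.6 FPKM at a slope of -0.32 (Het_MII C) to 18.6 FPKM at 0.38 (KO_MII A). The genotypes overlap in slope only near 0, and the part of GC content was not tested further.

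*Btg2*, an antiproliferative BTG protein and a target of p53, passed the adjusted p at MII but not the fold. It was at 9.32, 9.59, 9.95, 8.30 and 12.4 FPKM in Het_MII A to E and at 18.4, 17.7, 13.3, 12.2 and 14.3 FPKM in KO_MII A to E. The groups overlapped only between Het_MII E and KO_MII D. The log2 fold change was 0.51 (1.42-fold, SE 0.132, adjusted p = 0.0231, limma), and with the GC trend removed it was 0.47 (adjusted p = 0.0293). The adjusted p missed the threshold without Het_MII A (0.0577), Het_MII D (0.0609) or KO_MII B (0.0553), without a filter on low values (0.0542), with the replicate block (0.0598) and with all 19 libraries in 1 fit (0.207). With values as deposited, sum or quantile scaling *Btg2* passed both thresholds (0.60, 0.68 and 0.59). At the 2cell stage *Btg2* was at 8.86, 17.2, 6.09, 6.51 and 12.4 FPKM in Het A to E and at 18.9, 13.9, 16.8 and 22.8 FPKM in KO A to D, overlapping through Het_2cell B. Its log2 fold change there was 0.86 (1.82-fold, 95% interval 0.17 to 1.56, adjusted p = 0.0795). Without Het_2cell B it was called (1.07, adjusted p = 0.0244).

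*Tob1* was higher in KO_MII at 1.32 ± 0.722 FPKM than in Het_MII at 0.547 ± 0.254 FPKM, and missed the threshold (log2 fold change 0.97, SE 0.326, adjusted p = 0.0564, limma). The groups overlapped through Het_MII D, with 0.998 FPKM, which lay above KO_MII B, D and E. These levels rest on 18.1 to 123 fragments a library. Without Het_MII D or without KO_MII B *Tob1* was called (adjusted p = 0.0366 and 0.0416), as it was with the values as deposited, scaled to the sum, or with all 19 libraries in 1 fit. At the 2cell stage the difference was 0.10 (95% interval -0.25 to 0.45, adjusted p = 0.707). *Tob1* is on the study's own list of differing genes, which was drawn from these libraries. *Tob2* was at 3.78, 6.16, 2.44, 4.90 and 6.01 FPKM in Het_MII and at 10.2, 9.05, 7.26, 5.50 and 6.18 FPKM in KO_MII, with KO_MII D inside the range of Het_MII. Without KO_MII D *Tob2* was called. With all libraries its log2 fold change was 0.64 (SE 0.223, adjusted p = 0.0640, limma) at MII and 0.46 (95% interval -0.05 to 0.96, adjusted p = 0.184) at the 2cell stage. *Tob2* has a GC content of 53.4% (percentile 75.3). Its lowest MII library, Het_MII C, had the lowest GC slope of -0.32, and its highest, KO_MII A, the highest of 0.38. The part of GC content in this difference was not tested further.

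RNA of genes that mark the 2cell stage was also higher in the KO_MII libraries. Of the 8 markers, 4 were tested at MII and 3 were called higher, the near-identical copies *Zscan4c*, *Zscan4d* and *Zscan4f*, whose reads may be shared. The list summed to 1.73 to 2.61 FPKM in Het_MII and to 9.68 to 21.8 FPKM in KO_MII, while Zfp352 and Tdpoz3 stayed under 0.1 FPKM in every MII library. In KO_MII A to E the sums were 9.68, 14.9, 16.2, 21.8 and 11.03 FPKM, beside 2.36, 0.689, 1.78, 0.848 and 0.916 FPKM of *Tob1*. The part of this RNA in the adapter levels was not tested. *Zfp36l2* had a log2 fold change of 0.46 at MII (SE 0.212, adjusted p = 0.138, limma), and without KO_MII C, its highest library, that was 0.29 (adjusted p = 0.253).

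*Zfp36* was higher in the CPEB3-/- 2cell embryos. It was at 0.361, 0.978, 0.832, 1.14 and 0.433 FPKM in Het_2cell A to E and at 2.18, 1.33, 1.41 and 2.39 FPKM in KO_2cell A to D. Every KO library lay above every Het library, as was the case in either direction for 20% of tested genes. The log2 fold change was 1.21 (2.31-fold, SE 0.322, adjusted p = 0.0275, limma), and the exact permutation test on the deposited FPKM gave p = 0.00794 (two-sided, unadjusted, 1 of 18 such tests, the smallest p these libraries allow). The values rest on 23.1 to 160 fragments. The call was lost without Het_2cell E (adjusted p = 0.0611), KO_2cell A (0.0730) or KO_2cell D (0.0793), without a filter on low values (0.0607), with the replicate letter as a block (0.108) and with the GC trend removed (0.0598, log2 fold change 0.97), and it held with a pseudocount of 1 at a log2 fold change of 0.67. *Zfp36* has a GC content of 54.1% (percentile 78.6), and its highest 2cell libraries, KO_2cell D and A, had the highest GC slopes of 0.34 and 0.24. Its lowest, Het_2cell A and E, had the lowest slopes of -0.24 and -0.23. Het_2cell D, with a slope of -0.21, had the highest *Zfp36* of the Het libraries (1.14 FPKM), above Het_2cell C (0.832 FPKM) with -0.03, and the part of GC content in the result was not tested further. At MII *Zfp36* was at 0.183 to 0.403 FPKM in Het and 0.0882 to 0.479 FPKM in KO (log2 fold change 0.12, 95% interval -0.54 to 0.78, adjusted p = 0.792).

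Other immediate-early genes were higher in the same embryos. Of the 9 genes of that list 7 were tested at the 2cell stage, 4 were called higher in KO_2cell and none lower (18.1% of all tested genes were called, 1198 of 14049 higher), and the median log2 fold change of the 7 was 1.36 (all genes -0.00). *Egr1*, a zinc finger transcription factor, was at 0.990 ± 0.0886 FPKM in Het and 2.48 ± 0.291 FPKM in KO (log2 fold change 1.19, adjusted p = 0.00145, limma). *Junb*, a subunit of AP-1, was at 0.490 ± 0.177 and 2.00 ± 0.390 FPKM (1.83, adjusted p = 0.00275), and *Fos*, its partner, at 0.778 ± 0.259 and 2.38 ± 0.998 FPKM (1.42, adjusted p = 0.0111). *Ier2* was at 7.86 ± 2.64 and 20.5 ± 4.86 FPKM (1.36, adjusted p = 0.00491). The libraries of these 4 genes did not overlap between the genotypes, as was so for 20% of tested genes. All 4 stayed called with the GC trend removed and with any 1 of the 9 libraries left out, while with the replicate letter as a block 2 of them did and with both changes none did. With a pseudocount of 1 the 4 were still called, at 0.77 (*Egr1*), 0.99 (*Junb*), 0.87 (*Fos*) and 1.26 (*Ier2*). The genotype difference was larger at the 2cell stage than at MII by the interaction test for *Ier2* (2.38) and *Egr1* (0.76). For *Ier2* this rests in part on low MII values, with 0 to 0.403 FPKM in KO_MII and a log2 fold change of -0.98 there. *Jun* (1.68, adjusted p = 0.0992), *Dusp1* (0.56, adjusted p = 0.0442, under 1.5-fold) and *Fosb* (0.36, adjusted p = 0.179) were not called. At MII 4 genes of the list were tested and none was called, though *Egr1* passed the adjusted p (0.44, adjusted p = 0.0432, limma, under 1.5-fold). Of the 2 cumulus and granulosa cell markers tested in 2cell embryos, Tnfaip6 was called lower in KO (0.274 ± 0.0882 to 0.0905 ± 0.0403 FPKM, log2 fold change -0.999, adjusted p = 0.0152, limma) and none was called higher. That call was lost with the GC trend removed (-0.68, adjusted p = 0.0755), with the replicate letter as a block (adjusted p = 0.0806) and, by the fold, with a pseudocount of 1 (-0.23). Of the 8 oocyte markers 1 was called lower in KO_2cell, *Oosp1* (-0.69, adjusted p = 0.0257, limma). Of the 8 markers of the 2cell stage 1 was called lower, *Zscan4d* (-1.02, adjusted p = 0.0402). These calls were lost in 5 and 6 of the 9 fits that leave out a library.

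**Figure D5:**
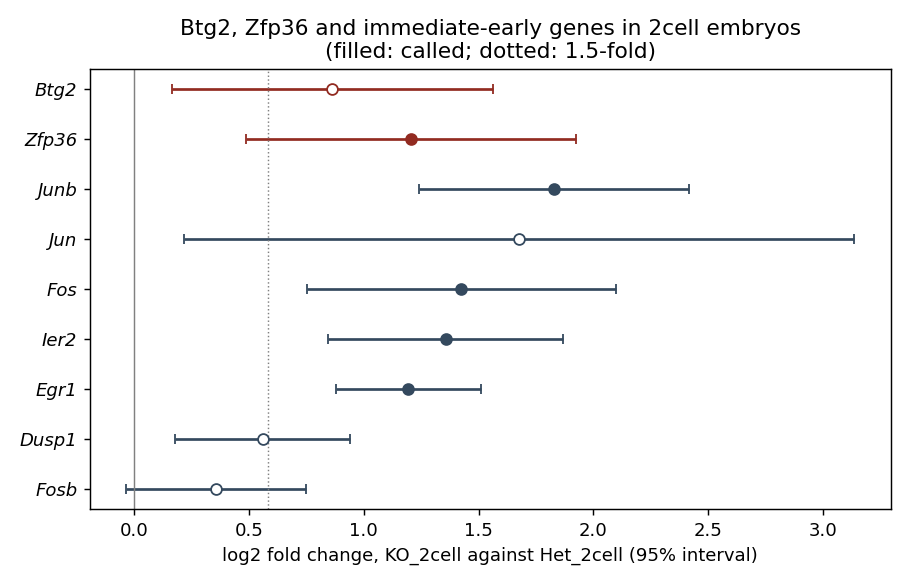
Log2 fold change between KO_2cell and Het_2cell libraries with 95% intervals (horizontal axis) for *Btg2*, *Zfp36* and the 7 tested immediate-early genes; filled points were called and the dotted line marks 1.5-fold. *Zfp36* (1.21) lies among *Egr1* (1.19), *Ier2* (1.36) and *Fos* (1.42), and all points lie above 0.

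The remaining members gave no call between the genotypes of 2cell embryos. *Zfp36l2* was at 7.80 ± 1.87 FPKM in Het and 11.1 ± 1.04 FPKM in KO (log2 fold change 0.48, 95% interval 0.11 to 0.86, adjusted p = 0.0696, limma), with Het_2cell C inside the range of KO. With the GC trend removed its difference was 0.23 (adjusted p = 0.347). *Btg1* had -0.30 (-0.77 to 0.17, adjusted p = 0.340), *Zfp36l1* 0.31 (-0.47 to 1.08, adjusted p = 0.572) and *Btg3* 0.01 (-0.40 to 0.42, adjusted p = 0.970). *Btg1* at MII had -0.21 (-0.48 to 0.06, adjusted p = 0.240). On the fitted scale the intervals for *Btg1* at MII and for *Btg3* and *Tob1* at the 2cell stage leave no room for a 1.5-fold difference. Those for *Btg1*, *Btg2*, *Btg4*, *Tob2*, *Zfp36l1* and *Zfp36l2* at the 2cell stage do.

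The genotype and stage differences of the members were also tested against each other. None of the 9 members passed the interaction of genotype and stage in limma, where 8.04% of 15784 genes did. An unadjusted p under 0.05 was held by 2, *Tob1* (0.0444) and *Zfp36* (0.0301), and the share of all genes under that cutoff was not counted. With a pseudocount of 1 *Zfp36* passed (0.60, adjusted p = 0.0499). On simulated data the interaction recovered only 26% of 2-fold and 66% of 4-fold changes (14601 genes), so that differences of these sizes can be missed.

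The partners of the adapters were examined through lists chosen by role, to be read against the 12.9% of all tested genes called at MII and 18.1% at the 2cell stage. Of the 11 CCR4-NOT subunits, 10 were tested at MII and 1 was called, lower in KO. This was *Cnot7*, the CAF1 deadenylase that BTG and TOB proteins bind, which was at 20.8 ± 5.07 FPKM in Het_MII and 10.2 ± 3.35 FPKM in KO_MII (log2 fold change -1.15, adjusted p = 0.0193, limma), a call lost with the replicate letter as a block (adjusted p = 0.0614). In 2cell embryos 1 of 11 was called higher, *Cnot3* (0.73, adjusted p = 0.0218), and 1 lower, again *Cnot7* (-0.85, adjusted p = 0.0224). The call of *Cnot3* was lost without KO_2cell A, B or C, with the replicate block and with a pseudocount of 1. That of *Cnot7* was lost without KO_2cell A or D, with the replicate block, with sum scaling and with the GC trend removed (-0.42, adjusted p = 0.167). The study picked *Cnot7* from these libraries and also reports qPCR for it. In CPEB3-/- MII oocytes it further reports less CNOT7 protein by immunoblot and an impaired poly(A) tail. Of 6 poly(A)- and cap-binding partners, *Eif4e*, which BTG4 binds, was lower in KO_2cell (13.5 ± 2.04 to 6.79 ± 0.936 FPKM, -1.02, adjusted p = 0.00241). *Pabpc1*, the poly(A)-binding protein that TOB proteins bind, was lower in KO_MII (0.265 ± 0.0493 to 0.116 ± 0.0290 FPKM, -0.82, adjusted p = 0.00247, and -0.20 and not called with a pseudocount of 1), and both genes have processed copies elsewhere in the genome that could share reads. In that list 1 gene was called higher at MII, *Pabpn1* (7.96 ± 2.76 to 14.4 ± 4.29 FPKM, 0.77, adjusted p = 0.0360, limma), and 1 lower. At the 2cell stage 1 was called higher, *Pabpc1l* (0.116 ± 0.0231 to 0.293 ± 0.103 FPKM, 0.81, adjusted p = 0.0222). The 2 lower were *Eif4e* and *Pabpn1* (65.6 ± 13.7 to 38.1 ± 3.95 FPKM, -0.81, adjusted p = 0.00791). With a library left out, *Pabpn1* lost its MII call in 6 of 10 fits and its 2cell call in 0 of 9, and *Pabpc1l* in 3 of 9. Of 8 other deadenylases 7 were tested at MII with no call, and at the 2cell stage 2 were called higher, *Pan2* (0.71) and *Pan3* (0.60), and 1 lower, *Toe1* (-1.25). *Pan3* lost its call in 6 and *Toe1* in 7 of the 9 fits that leave out a library (highest adjusted p = 0.0836 and 0.0936). *Pan2* kept its call in those fits and lost it with the replicate block (adjusted p = 0.0772) and, by the fold, with a pseudocount of 1 (0.49). Of the other RNA-binding recruiters, 11 of 17 were tested at MII and 1 was called, *Ythdf2* (an m6A reader, 2.27 ± 0.298 to 3.90 ± 0.192 FPKM, 0.66, adjusted p = 0.000588), which was 0.51 and thus under the fold threshold when the pseudocount was 1. In 2cell embryos 14 were tested, with 1 higher (*Tnrc6c*, 0.61) and 1 lower (*Rc3h2*, -1.01), and neither kept its call throughout. Of the decapping and exonuclease genes 0 of 8 were called at MII and 2 of 7 at the 2cell stage, *Edc4* (1.13) and *Dcp1a* (0.67), both higher. *Dcp1a* lost its call in 7 of the 9 fits that leave out a library (highest adjusted p = 0.112). *Edc4* kept its call in those fits and lost it with the replicate block (adjusted p = 0.0686) and, by the fold, with a pseudocount of 1 (0.42). No CPEB gene (3 tested at each stage) and no terminal uridylation gene (1 tested at each) was called between the genotypes.

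The partners of the adapters also changed between the stages. In CPEB3+/- 5 of 11 CCR4-NOT subunits fell and 2 rose (of all genes 28.2% fell and 38.2% rose), with a median log2 fold change of -0.49 (all genes 0.21), and 5 of 8 tested decapping and exonuclease genes fell and none rose, with a median of -1.0. *Cnot3* fell from 7.78 ± 0.785 to 0.895 ± 0.173 FPKM, and *Dcp1a*, a decapping activator, from 4.34 ± 0.634 to 0.781 ± 0.154 FPKM. The counts in CPEB3-/- were the same for both lists. The germ cell RNA-binding protein gene *Dazl* fell from 75.2 ± 13.0 to 14.5 ± 3.50 FPKM in CPEB3+/-. Of the partners of TOB and BTG4, *Pabpc1* rose from 0.265 ± 0.0493 to 4.99 ± 1.58 FPKM in CPEB3+/-, while *Pabpn1l*, which binds poly(A) in oocytes and is a partner of BTG4, fell from 15.8 ± 2.94 to 0.393 ± 0.232 FPKM.

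The genes with the pattern most like that of a member were taken by Pearson r of log2 values over the 19 libraries (5278 genes with a mean of at least 1 FPKM), which fall into 2 stages, so that a gene that differs between stages gives a high r with any other that does. For *Zfp36l2* these were *Slc25a28* (r = 0.995) and *Hexim1* (0.993), and for *Tob1* *Cox6b1* (0.977) and *Rplp1* (0.976). *Btg4* was most like *Ap3m1-ps* (0.977) and *C87414* (0.972), and *Btg1* most like *Yy2* (0.953) and *Thap12* (0.946). For *Btg2* and *Tob2*, with no call between stages, the highest values were lower, *Epn2* (0.823) and *Gm49207* (0.820) for *Btg2* and *Stk35* (0.889) and *Bptf* (0.886) for *Tob2*.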

How the data were processed

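SMART-seq v4 libraries of MII oocytes and 2cell embryos were sequenced with paired 150 bp reads. The authors trimmed reads with Trim Galore 0.4.1, mapped them to GRCm38 with HISAT2 2.0.5 (both named in the submitters' processing notes) and deposited values that the methods describe as FPKM per gene from SeqMonk. The deposited table is named as counts, but 0.00203% of its values above 0 are whole numbers, so FPKM was taken as the unit and no count model was used. All 19 columns were used, and 2 rows that share a symbol were left out. Depth was estimated from the spacing of low values, of which 44.2% (median) lay within 0.05 of whole fragments, so fragment numbers are approximate and no reads were recovered. Methods name quadruplicates and the labels 5, 5, 5 and 4 libraries, and the labels were followed.

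For scaling, a trimmed mean of log ratios to a common reference was taken per library (30% of ratios and 5% of levels trimmed), and log2(FPKM + 0.1) was fitted with limma 3.58.1 (R 4.3.3, variance trend, Benjamini-Hochberg adjustment over all genes tested). Genotypes were compared within each stage, on genes that reached 0.1 FPKM in 5 libraries at MII or in 4 at 2cell, and stages and the interaction in a fit of all 19 libraries (0.1 FPKM in 4). Calls needed both an adjusted p below 0.05 and a difference above 1.5-fold, and in the interaction the adjusted p alone. Members were also compared by exact permutation of the deposited FPKM (252 splits at MII, 126 at 2cell). On simulated MII data 84% of 4-fold and 68% of 2-fold changes were recovered (10177 genes), and on simulated 2cell data 83% and 37% (13567 genes). Alternatives were other scalings, a pseudocount of 1, other filters, all libraries in 1 fit, a replicate block, removal of the GC trend (loess, span 0.5), no variance trend, no fold threshold and leaving out each library. Positions and 3′UTRs came from GENCODE vM21. All members were named, with at most 3 called genes per partner list and comparison, the marker and immediate-early lists, and the 2 genes most alike in pattern to each member with a mean of at least 1 FPKM. The members and lists were chosen with earlier results of these data known.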

Additional observations from a re-analysis of the deposited data

Results flagged for a closer look

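Of the 36 groups of libraries examined (9 genes in 4 groups), 3 held a library far from the rest of its group by Dixon's criterion, and chance alone marks about 1 in 20 groups. *Tob1* in Het_MII replicate D was 0.998 FPKM, with the next library at 0.472 FPKM, and the gap took 0.882 of the group's range (critical value 0.71). *Zfp36l2* in KO_MII replicate C was 1.02 FPKM, with the next at 0.557 FPKM and a gap of 0.807. *Zfp36l1* in KO_MII replicate A was 0.0416 FPKM, about 2.84 fragments, where the other libraries of the group were at 0 or indistinguishable from it, and this value lies under the floor of 3 fragments.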

How the results depend on the processing

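Outside the fits that leave out a library, 656 of 800 values kept their direction and side of the threshold, 94 became weaker, 34 stronger and 16 reversed. Members called between genotypes at MII numbered 2 with values as deposited (*Btg2*, *Tob1*), 3 with sum scaling (also *Tob2*), 1 with quantile scaling (*Btg2*), 1 with a filter of 1 FPKM (*Tob2*), 1 with all libraries in 1 fit (*Tob1*) and 1 without a fold threshold (*Btg2*). At the 2cell stage they numbered 4 with sum scaling (*Zfp36*, *Btg2*, *Tob2*, *Zfp36l2*), 3 with quantile scaling and 3 with a filter of 1 FPKM (without *Tob2*), 2 with all libraries in 1 fit (*Zfp36*, *Btg2*), and 0 without a filter, with the replicate block, with the GC trend removed or with both. Sum scaling shifted the median of all genes to 0.15 at MII and 0.26 at the 2cell stage, and the stage medians of 0.21 became -0.17 and -0.07. With a pseudocount of 1, 4 members were called between stages in CPEB3+/- and 1 (*Zfp36*) in the interaction. All genes called with a pseudocount of 1 numbered 481 at MII, 1162 at 2cell, 5282 and 5269 between stages in CPEB3+/- and CPEB3-/-. With a filter of 1 FPKM, where fewer genes are tested, they numbered 773, 1496, 5291 and 5136, and 791 in the interaction. Without a fold threshold 2246 were called at MII. The replicate letters share only a name: deviations of same-letter libraries correlated at -0.18 to 0.12 at MII and -0.07 to 0.04 at 2cell, and only D correlated best with its own letter in either stage. With the replicate block 823 genes were called at MII, 369 at 2cell and 842 in the interaction, and 0 at 2cell with the GC trend also removed. Except for the filter, the cause was not tested.

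Reversed differences were all without a call. They were *Zfp36* at MII (-0.049 with the GC trend removed, with or without the block), *Btg1* (0.034, sum scaling) and *Btg3* at 2cell (-0.055 with quantile scaling, -0.024 without a filter), and *Btg2* between stages in CPEB3-/- (-0.32 with sum, -0.14 with quantile scaling, -0.36 with the GC trend removed, -0.31 with the block too). In the interaction they were *Zfp36l2* (-0.014 as deposited, -0.038 without a filter, -0.084 with the GC trend removed, -0.10 with the block too), *Btg1* (0.067 with sum scaling, 0.031 with the GC trend removed and the block) and *Btg3* (0.079 with sum scaling). With each library left out, members called ranged from 0 to 1 at MII, 0 to 2 at 2cell, 7 to 7 and 7 to 8 between stages, and 0 to 0 in the interaction, and all genes called from 954 to 1541, 1830 to 2562, 10170 to 10727, 10085 to 10462 and 936 to 1553. Values that crossed 0 ranged from -0.0013 to 0.42 (*Zfp36*, MII), -0.071 to 0.13 (*Btg3*, 2cell), -0.033 to 0.20 (*Btg2*, stages in CPEB3-/-) and, in the interaction, -0.13 to 0.17 (*Zfp36l2*), -0.21 to 0.10 (*Btg1*) and -0.18 to 0.024 (*Btg3*). At these depths *Zfp36l1* and *Btg3* could not be compared at MII.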
